A study of Mus musculus with 12 samples.

Results

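Fibroblast growth factors (FGFs) and their receptors were followed across the lung RNA of all 12 samples of the series. The members were the 4 receptor genes Fgfr1, Fgfr2, Fgfr3 and Fgfr4 and the 5 ligand genes Fgf1, Fgf2, Fgf7, Fgf10 and Fgf18. They were found by gene symbol, 9 of the 35599 genes in the deposited table, and all 9 passed the filter on low values that left 15164 genes for testing. Whole mouse lung was taken at the end of the model from 3 groups of 4 samples, and the labels give no strain, age, sex, dose or day. The saline group was the control. The AE-PF group was given bleomycin (BLM), which scars the lung, together with lipopolysaccharide (LPS), a bacterial product that inflames it, to model an acute exacerbation of pulmonary fibrosis, and stayed untreated. Animals of the ND-RHL group had the same BLM and LPS challenge and were then treated with liposomes that held nintedanib and dexamethasone and carried hyaluronic acid and RGD peptides on their surface. No group received empty liposomes or either drug alone, so the effects of the drugs and of the carrier cannot be told apart.

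FGF ligands bind receptor tyrosine kinases on the cell surface together with heparan sulfate, and the bound receptor signals through the adaptor FRS2 to the RAS and ERK kinases and is held in check by Sprouty proteins. In the lung, the mesenchyme makes FGF7 and FGF10, which act on an epithelial form of FGFR2 and are needed for branching and for the upkeep of alveolar type 2 cells, while FGF18, FGFR3 and FGFR4 take part in the building of alveoli. Nintedanib blocks the kinase domains of FGF, VEGF and PDGF receptors, and dexamethasone acts through the glucocorticoid receptor. The table gives 1 value for a gene, so the epithelial and mesenchymal splice forms of the receptors were not resolved.

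Values are FPKM, fragments scaled by gene length and by library total, which allows a rough comparison of levels between genes. The length was that of all annotated exons of a gene together, for the receptors 3542 (Fgfr4) to 10328 bases (Fgfr2). Orders, shares and ratios across genes depend on these lengths. Each library held 16152379 to 21667129 counted fragments, and the 9 members had between 83 (Fgf18 in AE-PF library 2) and 5452 (Fgf1 in ND-RHL library 3) fragments in a library. The lung label held: Sftpc, the surfactant gene of alveolar type 2 cells, and Pecam1, a junction protein of endothelium, were present in every library, at 969 to 14292 and 80.6 to 159. AE-PF library 2 and ND-RHL library 4 also carried transcripts of squamous epithelium and skeletal muscle, with Krt13, a keratin of the mouth and oesophagus, at 899 and 2949 and at most 0.271 elsewhere. The summed FPKM of 6 skeletal muscle markers was 663 and 1724 in these 2 libraries, 130 in saline library 3 and at most 24.6 elsewhere. Between AE-PF and saline lung 56.6% of all tested genes changed (adjusted p under 0.05 by limma). Of these, 46.7% were higher, or 63.0% once every library was brought to an equal sum of FPKM, a scaling that took the overall median log2 difference from -0.03 to 0.09. The corresponding shares that were higher between ND-RHL and AE-PF were 58.2% and 37.8%, and 46.4% after quantile normalisation. Between ND-RHL and saline lung they were 60.5%, 67.2% and 43.5%. The labels do not say that the samples came from separate animals, so the p-values measure the spread between these samples.

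The 250 bases before the RefSeq start sites of Fgfr2 and of 3 ligands are shown, because Fgfr2, Fgf10 and Fgf18 were lower in AE-PF lung and Fgf7, which shares its receptor with Fgf10, was not called. They are from the RefSeq promoter table on GRCm38.p6, which matched 7 of the 9 members, and each is written 5′ to 3′ along the gene. Fgfr3 and Fgfr4, also lower in AE-PF lung, were among the 7, and their windows are not shown. The Fgfr2 stretch is chr7:130266809-130267058 on the minus strand, upstream of the starts of all GENCODE M21 transcripts of the gene but 1. The Fgf7 stretch is chr2:126034408-126034657 on the plus strand, directly before the annotated gene. The Fgf10 stretch is chr13:118714449-118714698 on the plus strand, inside the annotated span of the gene and outside its exons. The Fgf18 stretch is chr11:33147401-33147650 on the minus strand, directly before the gene. Capitals mark the searched motifs, read on both strands.
Fgfr2: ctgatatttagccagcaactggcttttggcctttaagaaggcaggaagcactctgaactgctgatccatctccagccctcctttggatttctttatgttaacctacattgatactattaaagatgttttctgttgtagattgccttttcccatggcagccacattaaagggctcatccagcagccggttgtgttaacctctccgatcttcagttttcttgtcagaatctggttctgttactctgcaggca
Fgf7: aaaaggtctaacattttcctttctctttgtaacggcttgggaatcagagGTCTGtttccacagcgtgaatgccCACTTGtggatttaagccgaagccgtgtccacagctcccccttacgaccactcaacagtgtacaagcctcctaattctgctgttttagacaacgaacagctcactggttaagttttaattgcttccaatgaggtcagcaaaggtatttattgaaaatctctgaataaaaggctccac
Fgf10: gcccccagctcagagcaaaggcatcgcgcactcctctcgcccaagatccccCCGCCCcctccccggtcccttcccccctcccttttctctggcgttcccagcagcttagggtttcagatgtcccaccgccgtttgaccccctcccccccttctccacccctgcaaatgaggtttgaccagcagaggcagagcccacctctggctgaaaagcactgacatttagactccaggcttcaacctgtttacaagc
Fgf18: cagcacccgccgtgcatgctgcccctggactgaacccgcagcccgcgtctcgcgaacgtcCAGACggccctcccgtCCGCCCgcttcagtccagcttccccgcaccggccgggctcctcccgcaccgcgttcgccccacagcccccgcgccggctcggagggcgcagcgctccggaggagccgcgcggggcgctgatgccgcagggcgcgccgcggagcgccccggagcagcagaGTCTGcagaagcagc
The search covered AGAACA (glucocorticoid receptor hexamer), CAGAC (SMAD box), CAAGTG (NKX2 core), CCGGAAG (ETS core) and GGGCGG (GC box), and no capitals above belong to more than 1 of them. Over 32851 windows of this length these were present in 16.1%, 42.2%, 11.6%, 6.91% and 32.7%. The Fgfr2 window held none of the 5. Fgf18 held the SMAD box 2 times and the GC box 1 time, Fgf10 held the GC box 1 time, and Fgf7 held the SMAD box 1 time and the NKX2 core 1 time. GC content was 77.2% for Fgf18, 61.2% for Fgf10, 44.0% for Fgfr2 and 43.6% for Fgf7, and the median window had 52.4%. A match describes the letters and is not evidence of binding.

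AE-PF lung held less RNA of 3 receptors and more of the fourth. Of the 4 receptor genes, Fgfr2, Fgfr3 and Fgfr4 fell and Fgfr1 rose against saline. Of the 9 members, 6 fell, 2 rose and 1 did not pass, where 30.2% of all tested genes were lower and 26.4% higher. The libraries of the 2 groups did not overlap for 8 of the 9 members, and for 54.3% of all tested genes. The members' median log2 difference was -0.66 and that of all tested genes -0.03.

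Fgfr4 (chromosome 13, 55152640 to 55168759, plus strand, GRCm38) encodes a receptor of epithelial and liver cells that also takes part in alveolar growth. It stood at an FPKM of 15.3, 15.5, 13.9 and 13.9 in saline lung and at 3.32, 2.97, 4.85 and 4.59 in AE-PF lung. Every AE-PF library was far under the lowest saline library. The group means were 14.6 ± 0.854 and 3.93 ± 0.928 (SD, n = 4), a 3.72-fold lower level, and the log2(FPKM + 1) value fell by 1.68 (SE 0.146, adjusted p = 5.96e-06, limma).

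The main receptor of FGF7 and FGF10 in epithelium is encoded by Fgfr2 (chromosome 7, 130162451 to 133123350, minus strand), a span drawn out by 1 long transcript model. Its FPKM was 16.3, 17.2, 17.5 and 15.0 in saline libraries and 4.06, 3.85, 5.44 and 5.74 in AE-PF libraries. Again the groups lay far apart. Means of 16.5 ± 1.15 and 4.77 ± 0.958 differed 3.46-fold, with a log2 fall of 1.61 (SE 0.138, adjusted p = 5.64e-06, limma). Fgfr2 shares 314 exon bases with Ctbp2 on the same strand, whose mean FPKM was 8.92 in saline and 6.98 in AE-PF lung.

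Fgfr3 (chromosome 5, 33721674 to 33737068, plus strand) had the highest level of the receptors in saline lung. This gene was at 33.8, 37.5, 31.5 and 33.7 with saline and at 10.2, 13.0, 15.3 and 15.0 in AE-PF. AE-PF libraries 1 and 2 were the lowest, as they were for Fgfr2 and Fgfr4. The mean went from 34.1 ± 2.49 to 13.4 ± 2.39, 2.55-fold lower, and on the log2 scale it fell by 1.304 (SE 0.112, adjusted p = 5.67e-06, limma). It shares 998 exon bases with the antisense gene G630022F23Rik, which was at most at 0.0744 in saline and 0.0609 in AE-PF lung.

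Fgfr1 (chromosome 8, 25513654 to 25575718, plus strand), the receptor of fibroblasts, smooth muscle and endothelium, moved the other way. It was at 11.6, 11.1, 9.42 and 10.1 in saline libraries and at 20.0, 25.0, 14.3 and 13.7 in AE-PF libraries. All 4 AE-PF libraries were above the saline range, libraries 1 and 2 by far more than 3 and 4. The mean rose 1.73-fold, from 10.6 ± 0.990 to 18.3 ± 5.32, and the log2 value rose by 0.70 (SE 0.163, adjusted p = 0.00353, limma). With array weights, which count deviating libraries less, the log2 rise was 0.42.

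**Figure D1:**
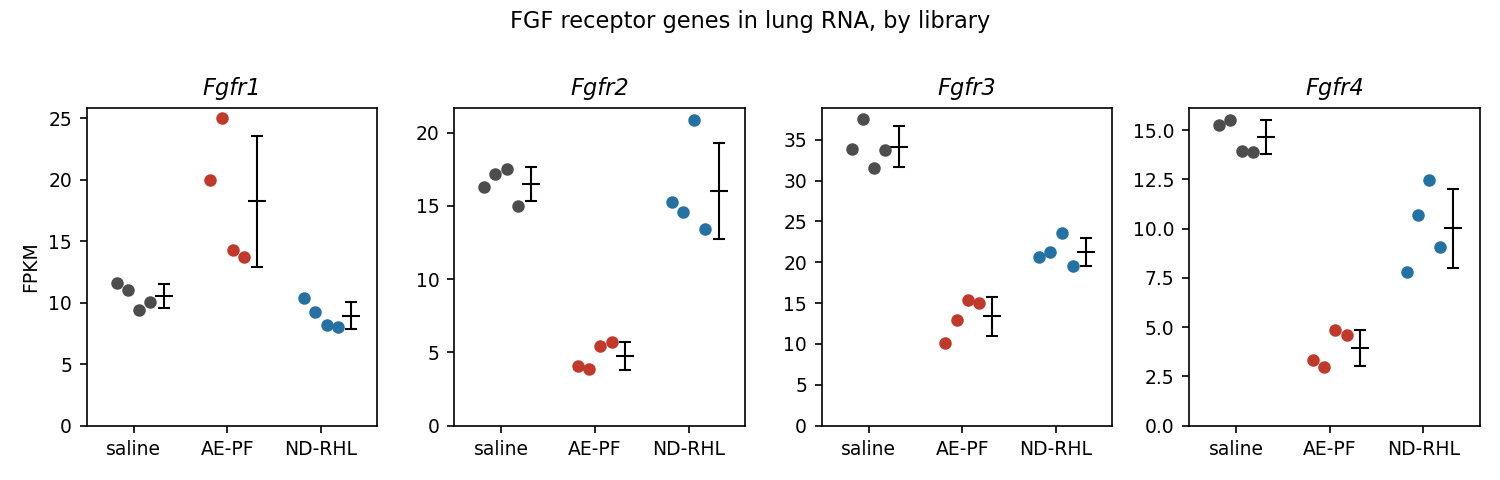
FPKM of Fgfr1, Fgfr2, Fgfr3 and Fgfr4 on linear axes from 0, 1 point per library in saline, AE-PF and ND-RHL lung, with the mean and SD of the 4 libraries beside each group. Fgfr2, Fgfr3 and Fgfr4 are low in all 4 AE-PF libraries and Fgfr1 is high there, with AE-PF libraries 1 and 2 (20.0 and 25.0) above 3 and 4 (14.3 and 13.7).

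The receptor make-up of the lung shifted with these changes. Summed over the 4 genes, receptor FPKM was 75.9 ± 4.21 in saline, 40.3 ± 3.12 in AE-PF and 56.2 ± 6.33 in ND-RHL lung. Fgfr1 made up 13.9% ± 0.879 of this sum in saline lung and 53.3%, 55.8%, 35.8% and 35.2% in AE-PF libraries 1 to 4. It returned to 16.1% ± 2.72 in ND-RHL lung. The share of Fgfr3 was 45.0% ± 1.49, 33.2% ± 6.08 and 37.9% ± 1.16 in the 3 groups. Fgfr2 made up 21.8% ± 1.64, 11.9% ± 2.77 and 28.3% ± 2.63, and Fgfr4 19.3% ± 0.343, 9.84% ± 2.60 and 17.7% ± 2.22. The ratio of Fgfr3 to Fgfr1 was 2.91 to 3.39 in saline, 0.507 to 1.09 in AE-PF and 1.99 to 2.89 in ND-RHL libraries.

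**Figure D2:**
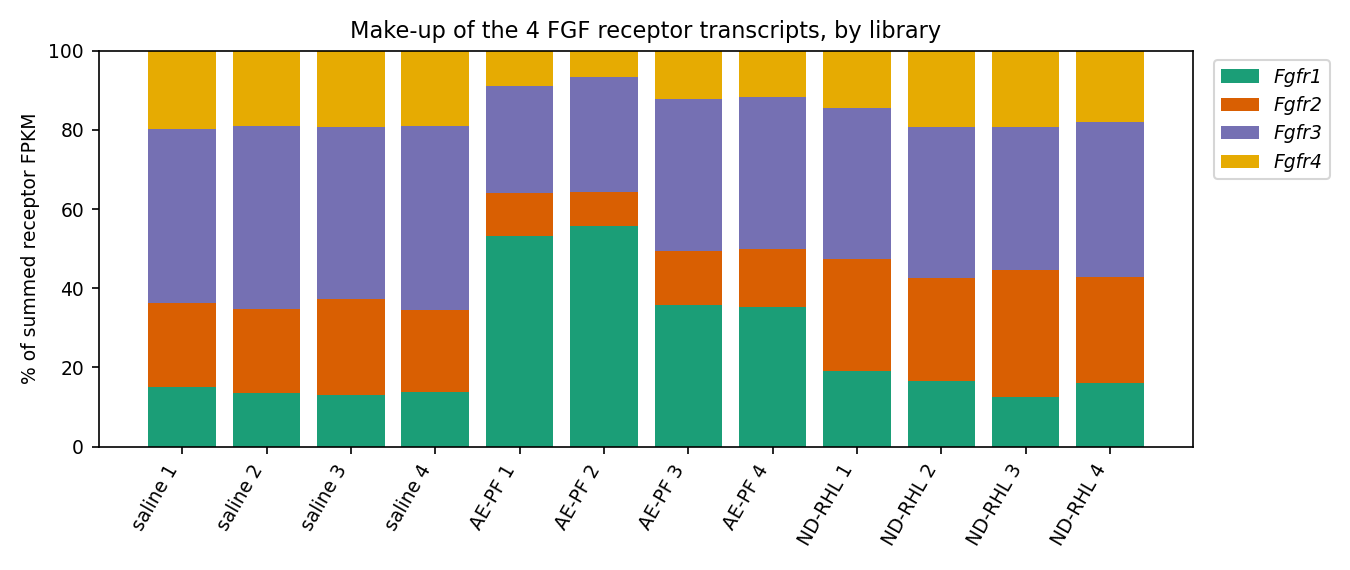
Share of each receptor gene in the summed FPKM of the 4 receptors (percent, stacked to 100), 1 bar per library. Fgfr1 takes 35.2% to 55.8% of the AE-PF bars and 12.6% to 19.2% of the saline and ND-RHL bars.

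Among the ligands, Fgf1 (chromosome 18, 38838673 to 38929472, minus strand) encodes a ligand of all FGF receptors that lacks a signal peptide. It had the highest level of the 9 members in saline lung, at 43.8, 49.5, 45.9 and 43.2, and stood at 17.2, 10.7, 29.2 and 29.2 in AE-PF libraries. AE-PF libraries 1 and 2 were lowest, the same libraries in which Fgfr1 was highest. The mean fell from 45.6 ± 2.85 to 21.6 ± 9.21, 2.11-fold, with a log2 fall of 1.15 (SE 0.260, adjusted p = 0.00297, limma), or 0.75 with array weights.

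Fgf2 (chromosome 3, 37348346 to 37410108, plus strand), basic FGF, is a growth factor for fibroblasts and vessels that also lacks a signal peptide. It was the ligand that rose, from 5.38, 4.87, 5.42 and 6.85 in saline libraries to 13.8, 12.8, 9.81 and 11.3 in AE-PF libraries. The lowest AE-PF library lay above the highest saline library. Means of 5.63 ± 0.853 and 11.9 ± 1.77 differed 2.12-fold, with a log2 rise of 0.96 (SE 0.108, adjusted p = 2.8e-05, limma). The antisense gene Nudt6 shares 640 exon bases with Fgf2 and was at 1.45 in saline and 1.55 in AE-PF lung. The sources used here do not give the strand setting of the counting.

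Fgf1 and Fgf2 therefore stood in another ratio: 6.30 to 10.2 in saline libraries, 1.24, 0.833, 2.98 and 2.59 in AE-PF libraries 1 to 4, and 7.06 to 10.7 in ND-RHL libraries. The share of Fgf1 in the summed FPKM of the 5 ligands was 60.8% ± 2.04, 40.9% ± 13.7 and 64.9% ± 1.85 in saline, AE-PF and ND-RHL lung, and that of Fgf2 was 7.54% ± 1.29, 23.7% ± 5.80 and 7.70% ± 1.17.

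The next 3 ligands are secreted, Fgf7 and Fgf10 by the mesenchyme. Fgf10 (chromosome 13, 118669791 to 118792115, plus strand), the signal for lung budding, was at 6.19, 5.45, 6.54 and 7.51 in saline and 4.55, 4.31, 4.33 and 4.56 in AE-PF libraries. Its AE-PF values lay within a narrow band, all below saline. The mean went from 6.42 ± 0.854 to 4.44 ± 0.138, and the log2 value fell by 0.44 (SE 0.094, adjusted p = 0.00205, limma). Fgf18 (chromosome 11, 33117430 to 33147400, minus strand), a ligand of FGFR3 and FGFR4 in alveolar growth, was at 7.82, 9.32, 7.69 and 5.67 and at 4.40, 3.87, 4.78 and 4.61. Here too the groups did not overlap, and the mean fell from 7.62 ± 1.50 to 4.42 ± 0.395, by 0.66 in log2 (SE 0.129, adjusted p = 0.00123, limma).

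Fgf7 (chromosome 2, 126034658 to 126091185, plus strand), keratinocyte growth factor, was the member whose groups overlapped. It was at 10.2, 9.05, 9.01 and 10.4 in saline and at 8.74, 12.6, 7.24 and 7.18 in AE-PF libraries. AE-PF library 2 was the highest of all 12, and the other 3 AE-PF libraries were below the saline range. The log2 difference was -0.13, with a 95% interval from -0.50 to 0.24 (adjusted p = 0.526, limma). With the libraries that carried squamous and muscle transcripts (AE-PF 2 and ND-RHL 4) left out, Fgf7 passed as lower, with a log2 difference of -0.29 (adjusted p = 0.00936). With array weights it also passed, at -0.33 (adjusted p = 0.0106, both limma).

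**Figure D3:**
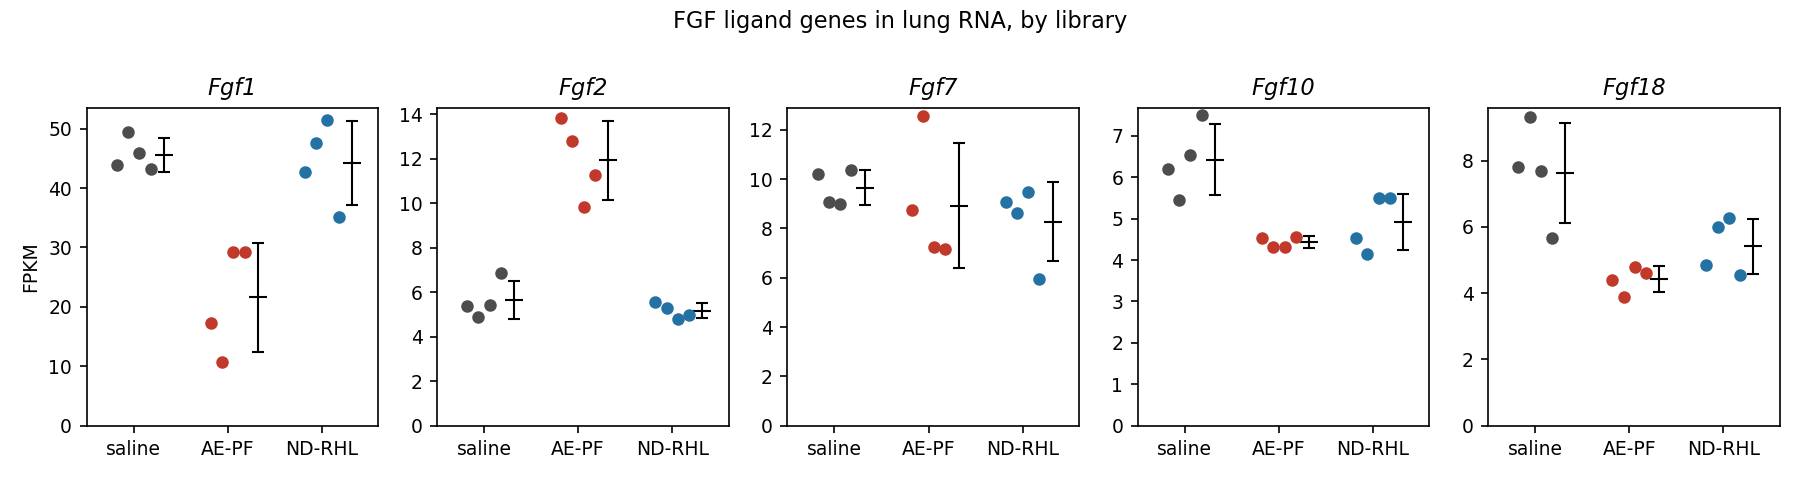
FPKM of the 5 ligand genes on linear axes from 0, 1 point per library, with mean and SD (4 libraries per group). Fgf2 is highest in AE-PF (9.81 to 13.8), Fgf1 is lowest there (10.7 to 29.2), and the Fgf7 groups overlap.

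Cell type markers moved in the same comparison, in which 30.2% of all tested genes were lower and 26.4% higher. Counts near these shares do not set a list apart from genes in general. The summed FPKM of 12 alveolar type 2 markers was 14710 to 18680 in saline and 3206, 1853, 5883 and 5540 in AE-PF libraries 1 to 4, and all 12 fell. Markers of alveolar type 1 cells ran from 1499 to 1720 and from 636 to 1420, with 5 of 11 lower and 1 higher. Club and ciliated markers ran from 29360 to 41500 and from 5070 to 6495, with 10 of 10 lower. Endothelial markers stood at 1198 to 1392 and 516 to 787 (8 of 11 lower), and alveolar fibroblast markers at 1763 to 2013 and 621 to 1020 (8 of 10 lower and 1 higher). Fibrotic fibroblast markers stood at 346 to 384 in saline and at 5363, 5270, 3022 and 2939 in AE-PF libraries 1 to 4, with 10 of 10 higher. Macrophage and monocyte markers ran from 153 to 178 and from 820 to 1055, with 9 of 11 higher and 1 lower. Cardiac muscle markers went from 363 to 644 in saline to 33.5 to 65.1 in AE-PF lung (8 of 8 lower), and adipocyte markers from 126 to 655 to 2.29 to 27.1 (6 of 6 tested lower). Neutrophil markers ran from 183 to 455 and from 116 to 227 (4 of 5 tested lower), and smooth muscle and pericyte markers from 357 to 467 and from 282 to 606 (4 of 9 tested lower and 1 higher). Of the other lists, 2 of 8 adventitial fibroblast markers and 1 of 3 tested cartilage markers were lower, 2 of 5 tested mesothelial markers were higher, and none of 5 tested skeletal muscle markers passed. No gene of these lists was at 0 in every library. In bulk tissue fewer cells of a type and less RNA per cell cannot be told apart, and the part of these markers in the FGF values was not tested.

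The next comparison set treated against untreated AE-PF lung. Fgfr2, Fgfr3, Fgfr4 and Fgf1 were higher with ND-RHL, and Fgfr1 and Fgf2 were lower, while Fgf7, Fgf10 and Fgf18 did not pass. Of all tested genes 41.8% changed in this comparison, 24.3% higher and 17.4% lower. The groups did not overlap for 6 of 9 members and for 36.8% of all genes. This comparison shares the AE-PF libraries with the one above, so the signs of the 2 are not independent.

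Fgfr2 was at 15.2, 14.6, 20.8 and 13.4 in ND-RHL libraries, 16.0 ± 3.29 on average and 3.36 times the AE-PF mean. Every library was above the highest AE-PF value of 5.74, and the log2 value rose by 1.56 (SE 0.138, adjusted p = 3.07e-05, limma). Fgfr4 rose to 7.82, 10.7, 12.5 and 9.06, a mean of 10.0 ± 2.02 and 2.55 times AE-PF, by 1.16 in log2 (SE 0.146, adjusted p = 0.000178). Fgfr3 rose to 20.6, 21.3, 23.6 and 19.5 (21.2 ± 1.71), 1.59 times AE-PF and 0.64 in log2 (SE 0.112, adjusted p = 0.00118). For both genes the ND-RHL libraries lay between those of the other groups and overlapped neither.

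Fgfr1 was at 10.4, 9.25, 8.16 and 8.06, under every AE-PF library, and its log2 value fell by 0.92 (SE 0.163, adjusted p = 0.00135, limma). Fgf1 rose to 42.7, 47.5, 51.5 and 35.1 (44.2 ± 7.02), 1.09 higher in log2 (SE 0.260, adjusted p = 0.00655). Fgf2 was at 5.56, 5.29, 4.81 and 4.98, a tight 5.16 ± 0.334, and fell by 1.06 in log2 (SE 0.108, adjusted p = 5.41e-05). Its ND-RHL libraries all lay within 4.81 to 5.56, well under the lowest AE-PF library at 9.81.

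The ligands Fgf7, Fgf10 and Fgf18 did not pass in this comparison. Fgf10 was at 4.54, 4.16, 5.49 and 5.51, with a log2 difference of 0.12 (95% interval -0.09 to 0.32, adjusted p = 0.342). Fgf18 was at 4.86, 6.00, 6.25 and 4.55, a difference of 0.24 (-0.05 to 0.52, adjusted p = 0.159). Fgf7 was at 9.06, 8.63, 9.49 and 5.93, a difference of -0.08 (-0.45 to 0.28, adjusted p = 0.712, all limma). These intervals leave room for changes of up to 0.52 in log2 for Fgf18 and 0.32 for Fgf10.

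Marker levels moved in this comparison as well, in which 24.3% of all tested genes were higher and 17.4% lower. The alveolar type 2 sum was 11070 to 19440 in ND-RHL lung and all 12 of its markers rose, as did 10 of 10 club and ciliated markers (10750 to 24410), 9 of 11 endothelial markers (974 to 1357) and 7 of 10 alveolar fibroblast markers (1321 to 1953). Of 11 alveolar type 1 markers 4 rose (1180 to 1752). Cardiac muscle (151 to 774) and adipocyte markers (20.6 to 871) were higher for 6 of 8 and 5 of 6 tested, smooth muscle and pericyte markers (219 to 764) for 3 of 9 and lower for 2, and no neutrophil marker passed (122 to 268). All 10 fibrotic fibroblast markers fell, to a sum of 419 to 1097, as did 8 of 11 macrophage and monocyte markers, with 1 higher (231 to 435). The part of these in the FGF values was not tested.

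**Figure D4:**
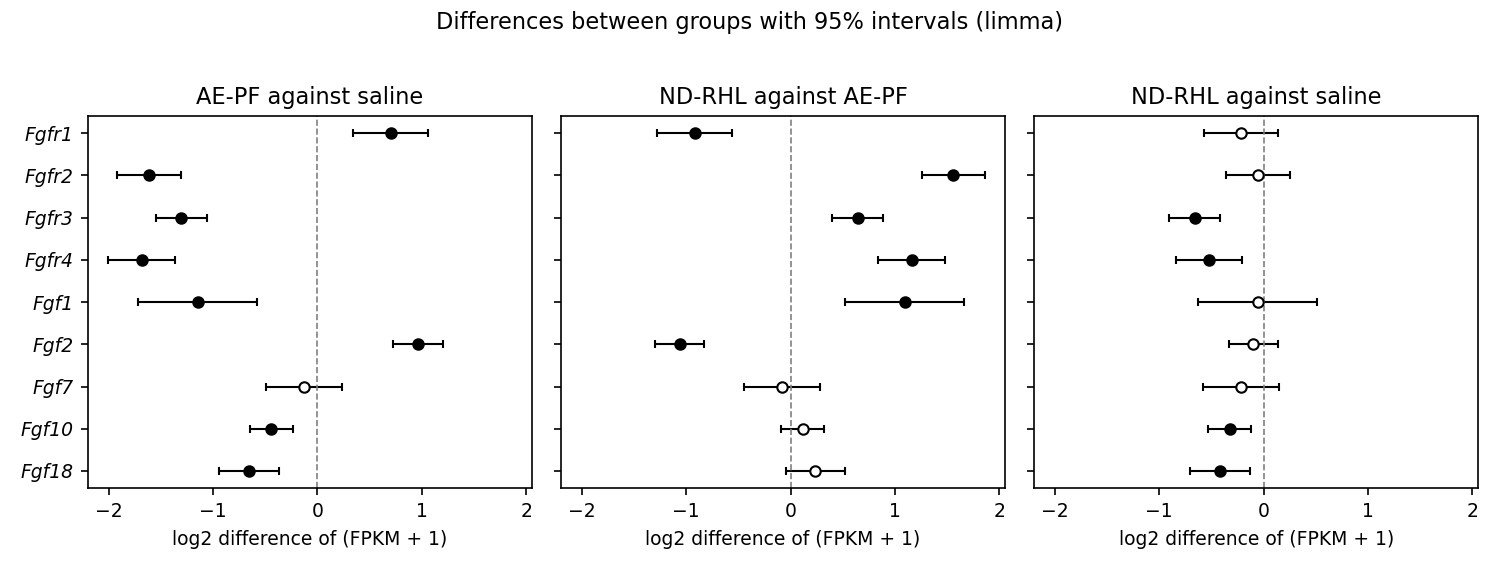
Difference in log2(FPKM + 1) for each member in 3 comparisons, with 95% intervals from limma, where filled points passed an adjusted p of 0.05. Points on the left panel that pass lie at -1.68 to 0.96, the middle panel has 4 filled points above 0 and 2 below, and the right panel shows 4 filled points, all below 0.

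Set against saline, ND-RHL lung was lower for Fgfr3, Fgfr4, Fgf10 and Fgf18 and higher for no member, 4 of 9 in all, where 21.9% of all tested genes changed, 8.65% lower and 13.3% higher. Fgfr3 was 34.1 ± 2.49 in saline and 21.2 ± 1.71 in ND-RHL lung, with no overlap and a log2 fall of 0.66 (SE 0.112, adjusted p = 0.00265, limma). Fgfr4 went from 14.6 ± 0.854 to 10.0 ± 2.02, also without overlap, by 0.52 (SE 0.146, adjusted p = 0.0268). Groups without overlap made up 29.9% of all genes and 2 of 9 members. The falls of Fgf10 (0.33, adjusted p = 0.0309) and Fgf18 (0.42, adjusted p = 0.0396) had overlapping groups, with an exact permutation p of 0.0857 for each single gene, where 0.0286 is the smallest possible.

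Between these groups 8.65% of all tested genes were lower and 13.3% higher, and 0 of 12 alveolar type 2 markers passed. Lower were 2 of 10 club and ciliated, 2 of 5 tested neutrophil and 1 of 11 endothelial markers. Higher were 3 of 10 fibrotic fibroblast, 8 of 11 macrophage and monocyte and 1 of 8 adventitial fibroblast markers. Of 10 alveolar fibroblast markers 1 was higher and 1 lower. No marker of the remaining lists passed. The part of the markers in the FGF values was not tested.

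The 4 calls differed in how firmly they held. Fgfr3 passed under all 25 alternative settings. Fgfr4 lost its call in 5 of them, among these without saline library 1 (adjusted p = 0.0662) or 2 (0.0718) and without ND-RHL library 1 (0.0664) or 4 (0.0617). Fgf10 lost it in 7, without saline library 1, 3 or 4 (0.0587, 0.0700 and 0.0779) or ND-RHL library 1 or 2 (0.0741 and 0.0817) among them. Fgf18 lost it in 13 (adjusted p up to 0.111), with 8 of the 12 libraries each able to end it (saline 1, 2 and 3, AE-PF 1 and 4, and ND-RHL 1, 2 and 4).

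The other 5 members did not pass, and their libraries overlapped those of saline lung. The log2 difference was -0.06 for Fgfr2 (95% interval -0.36 to 0.25), -0.22 for Fgfr1 (-0.58 to 0.14, adjusted p = 0.366) and -0.10 for Fgf2 (-0.34 to 0.14). Fgfr1 passed as lower (adjusted p = 0.0314, limma) when same-numbered saline and ND-RHL libraries were taken as pairs in a fit of these 2 groups alone. This pairing was chosen after the data were seen. For Fgf7 the log2 difference was -0.22 (-0.58 to 0.15). Fgf1 had the widest interval, -0.06 (-0.63 to 0.52).

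The order of levels within a group also differed. In saline lung Fgf1 led, followed by Fgfr3, then by Fgfr2 and Fgfr4, whose libraries overlapped, and then by Fgfr1, Fgf7, Fgf18, Fgf10 and Fgf2, in which each overlapped the next. In AE-PF lung Fgf1, Fgfr1, Fgfr3, Fgf2 and Fgf7 formed 1 run of overlapping neighbours, separated from a lower run of Fgfr2, Fgf10, Fgf18 and Fgfr4. In ND-RHL lung Fgf1 again stood alone, Fgfr3 and Fgfr2 followed, and Fgfr4, Fgfr1, Fgf7, Fgf18, Fgf2 and Fgf10 formed the lower run.

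Genes with the most similar pattern were sought among 13147 genes, by Pearson correlation of log2 values over the 12 libraries. The 12 points share 3 groups, so these values describe the pattern only. Fgfr2 was closest to Rnf167 (0.993), Crnde (0.993) and Ank3 (0.991), Fgfr3 to Unc45a (0.989) and Zscan29 (0.987), and Fgfr4 to Map4k2, Exosc7 and Mesp1 (0.988 each). Fgfr1 was closest to Qsox1 (0.986), Spsb1 (0.978) and Kirrel (0.973). For Fgf1 the nearest were Tmbim6 (0.996), Gbp4 (0.991) and Wbp1 (0.990), and for Fgf2 they were Kdelr2 (0.982), Arf4 (0.980) and Slc35f5 (0.980). Fgf18 lay near Plekhg5 (0.973), Cabin1 (0.968) and Pnpla6 (0.967). Fgf10 and Fgf7 had looser neighbours, Dnajb4 (0.938), Tuft1 (0.923) and Mb21d2 (0.923) for the former and Sec63 (0.927), Sox5 (0.909) and Hoxa2 (0.860) for the latter.

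The 13 other secreted FGF ligands were hardly detected. None passed the filter, and only Fgf23 reached an FPKM of 1 in any library. Fgf9, a ligand of the pleura and epithelium in lung growth, was at 0.161 ± 0.0253 in saline, 0.235 ± 0.0458 in AE-PF and 0.131 ± 0.0383 in ND-RHL lung. Fgf17 was at 0.232 ± 0.0886, 0.0507 ± 0.0426 and 0.0411 ± 0.0134. Fgf23, the bone hormone that lowers blood phosphate, was picked once its values were known. It had 1 fragment in each saline library, 20, 46, 31 and 33 in AE-PF libraries and 1, 8, 3 and 3 in ND-RHL libraries. In FPKM these were 0.0254 to 0.0337, 0.648 to 1.40 and 0.0303 to 0.273, and no test is given for a gene chosen by its values. The co-receptor gene of FGF23, Kl, was at 0.127 ± 0.0215, 0.0453 ± 0.0315 and 0.0836 ± 0.0194. Fgf11, an intracellular FGF homologue, went from 6.84 ± 0.379 in saline to 4.73 ± 0.526 in AE-PF (log2 fall of 0.45, adjusted p = 0.00714) and 4.04 ± 0.968 in ND-RHL lung.

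Of 18 co-receptors and FGF-binding proteins, 14 could be tested. In AE-PF against saline 8 rose and 2 fell, where 26.4% of all tested genes were higher and 30.2% lower. In ND-RHL against AE-PF 1 rose and 8 fell (24.3% and 17.4% of all tested genes). Between ND-RHL and saline none passed in the fit of all 12 libraries (21.9% of all tested genes, all by limma). The 4 untested genes, Kl, Klb, Flrt1 and Gpc6, had lower means in AE-PF than in saline lung, the highest of them Gpc6 with 0.595 ± 0.119 against 1.06 ± 0.295. The median log2 difference of the 14 tested genes was 0.38 between AE-PF and saline and -0.32 between ND-RHL and AE-PF, where all tested genes had medians of -0.03 and 0.06. Gpc1, a glypican heparan sulfate carrier, rose from 5.71 ± 0.579 to 12.6 ± 1.47 and was 6.27 ± 2.50 with ND-RHL (adjusted p = 0.00104 and 0.00282). Flrt2, a membrane protein that binds FGF receptors, rose from 2.27 ± 0.349 to 5.92 ± 1.50 and was 2.78 ± 0.720 with ND-RHL (adjusted p = 0.000289 and 0.00214). Fgfbp1, a secreted carrier that frees FGF2 from the matrix, fell from 5.11 ± 0.667 to 1.94 ± 0.894 and rose to 4.48 ± 1.83 (adjusted p = 0.00188 and 0.00999). Its highest values in these groups were in AE-PF library 2 and ND-RHL library 4, which carried squamous and muscle transcripts. Without both libraries Fgfbp1 passed as lower in ND-RHL than in saline lung. The log2 difference was then -0.41 in place of -0.20 (adjusted p = 0.0352, limma). Fgfrl1, a receptor without a kinase domain, was at 7.16 ± 1.10, 7.34 ± 0.239 and 8.12 ± 0.652 and did not pass.

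Of 14 enzymes that build and trim heparan sulfate, 13 were tested. In AE-PF 8 rose and 3 fell (26.4% and 30.2% of all tested genes), and with ND-RHL against AE-PF 1 rose and 7 fell (24.3% and 17.4%). The medians were 0.34 and -0.19, beside -0.03 and 0.06 for all tested genes. Sulf1, which removes sulfate from heparan sulfate, rose from 6.11 ± 0.726 to 16.4 ± 2.34 and fell to 6.91 ± 0.472 (adjusted p = 3.54e-06 and 3.07e-05). Ext1, which extends the chain, rose from 8.44 ± 0.438 to 20.8 ± 3.08 and fell to 9.73 ± 1.15 (adjusted p = 5.15e-06 and 4.77e-05). Hs3st1, a sulfotransferase, fell from 12.7 ± 1.37 to 6.68 ± 1.94 and rose to 12.9 ± 2.58 (adjusted p = 0.00222 and 0.00382). Hpse, the enzyme that cuts heparan sulfate, was higher in ND-RHL than in saline lung, at 6.25 ± 2.61 against 2.49 ± 0.209 (adjusted p = 0.0103, limma). AE-PF lung already held 5.13 ± 1.27, with its lowest library at 3.61 and the highest saline library at 2.71. Hs2st1 also passed between ND-RHL and saline lung (29.8 ± 5.31 against 21.8 ± 1.26, adjusted p = 0.0484). It lost this call in 13 of 25 alternative settings, the replicate block over all 3 groups among them (adjusted p = 0.0834). Leaving out any saline library, AE-PF library 1 or ND-RHL library 1, 2 or 3 ended it. In AE-PF lung Hs2st1 was at 28.2 ± 4.92 and did not pass against saline (adjusted p = 0.0507), though it did in some alternative settings (all limma).

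Adaptors and kinases below the receptor changed in both directions. Of 20 tested, 4 rose and 5 fell in AE-PF, and 3 rose and 4 fell with ND-RHL against AE-PF, where 56.6% and 41.8% of all tested genes changed. The median log2 difference was -0.01 in each of the first 2 comparisons. Shc1, an adaptor of receptor kinases, was at 20.3 ± 0.346, 29.8 ± 1.54 and 22.0 ± 1.31 in the 3 groups (adjusted p = 1.18e-05 and 0.000154). Gab1, a docking protein, was at 17.0 ± 0.924, 12.1 ± 1.27 and 16.2 ± 1.17 (adjusted p = 0.00038 and 0.00197). Nras rose from 19.2 ± 1.87 to 25.8 ± 0.956 (adjusted p = 0.000311). Grb2, the adaptor that links receptors to RAS, was at 38.6 ± 1.12, 46.7 ± 4.64 and 45.4 ± 1.38 in saline, AE-PF and ND-RHL samples. It was higher than saline in AE-PF (adjusted p = 0.00523) and in ND-RHL lung (adjusted p = 0.0300, both limma). The ND-RHL call was lost without any of saline libraries 1, 2 and 4 or ND-RHL libraries 1, 2 and 4. Plcg1 was at 24.7 ± 1.98, 20.3 ± 1.55 and 26.3 ± 4.14 in saline, AE-PF and ND-RHL lung. Its fall in AE-PF (adjusted p = 0.0404) was lost without saline library 1, 2 or 3 or AE-PF library 1 or 2, among other settings. Its rise with ND-RHL over AE-PF had an adjusted p of 0.0176, 0.0514 without AE-PF library 1 and 0.102 after scaling to an equal FPKM sum (all limma).

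Feedback inhibitors and target genes went both ways. Of 18 listed, 16 were tested: 8 rose and 7 fell in AE-PF, 5 rose and 6 fell with ND-RHL against AE-PF, and only Spred2 passed against saline. Of all tested genes 56.6%, 41.8% and 21.9% changed in these comparisons. The list's medians in the first 2 were 0.33 and -0.12, beside -0.03 and 0.06. Etv4 and Etv5 encode related ETS factors induced by FGF signalling. Etv4 was at 0.342, 0.191, 0.112 and 0.197 in saline, 4.56, 4.99, 2.91 and 3.04 in AE-PF and 0.531, 0.479, 0.183 and 0.444 in ND-RHL libraries. The AE-PF libraries stood above all others, and because Etv4 entered the test through them alone, its 2 calls, counted above, are a description and no p is given. Etv5, a factor of alveolar type 2 cells, was at 36.1, 38.3, 46.4 and 41.7, then at 13.8, 12.9, 24.3 and 23.6, and at 50.0, 55.2, 63.9 and 38.2. It fell by 1.13 (adjusted p = 0.000921) and rose by 1.46 (adjusted p = 0.000429), and its AE-PF libraries split 1 and 2 from 3 and 4, as the alveolar type 2 markers did.

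The Sprouty genes, which encode inhibitors of receptor signalling, also differed among themselves. Spry1 fell from 34.1 ± 2.08 to 22.8 ± 1.18 and was 29.9 ± 4.80 with ND-RHL (adjusted p = 0.000483 and 0.0108, the latter 0.0635 after scaling to the same FPKM total). Spry2 fell from 20.0 ± 0.341 to 15.2 ± 2.00 and was 19.9 ± 2.15 with ND-RHL (adjusted p = 0.00373 and 0.00722, the latter 0.0513 after that scaling). Spry4 rose from 9.59 ± 1.41 to 14.0 ± 3.44 and was 9.64 ± 1.86 with ND-RHL (adjusted p = 0.0310 and 0.0409). The first Spry4 call was lost without saline library 1 or 2 or AE-PF library 3 or 4, and the second without saline library 3, AE-PF library 3 or 4 or ND-RHL library 1, 3 or 4. Il17rd, a membrane inhibitor of FGF receptors, fell from 5.88 ± 0.202 to 4.22 ± 0.321 and was 5.95 ± 0.958 with ND-RHL (adjusted p = 0.00322 and 0.00506). Spred2, which blocks RAF activation, was at 12.0 ± 0.709, 8.16 ± 0.333 and 10.1 ± 0.524 and passed in all 3 comparisons (adjusted p = 1.94e-05, 0.00241 and 0.0109). Its log2 rise with ND-RHL over AE-PF was 0.27, and 0.17 after that scaling. Dusp6, the ERK phosphatase, rose from 37.8 ± 2.82 to 65.7 ± 11.7 and fell to 34.7 ± 4.91 (adjusted p = 0.00047 and 0.000428). Myc rose from 4.10 ± 0.878 to 13.4 ± 3.93 and fell to 4.83 ± 2.52 (adjusted p = 0.000702 and 0.00239).

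**Figure D5:**
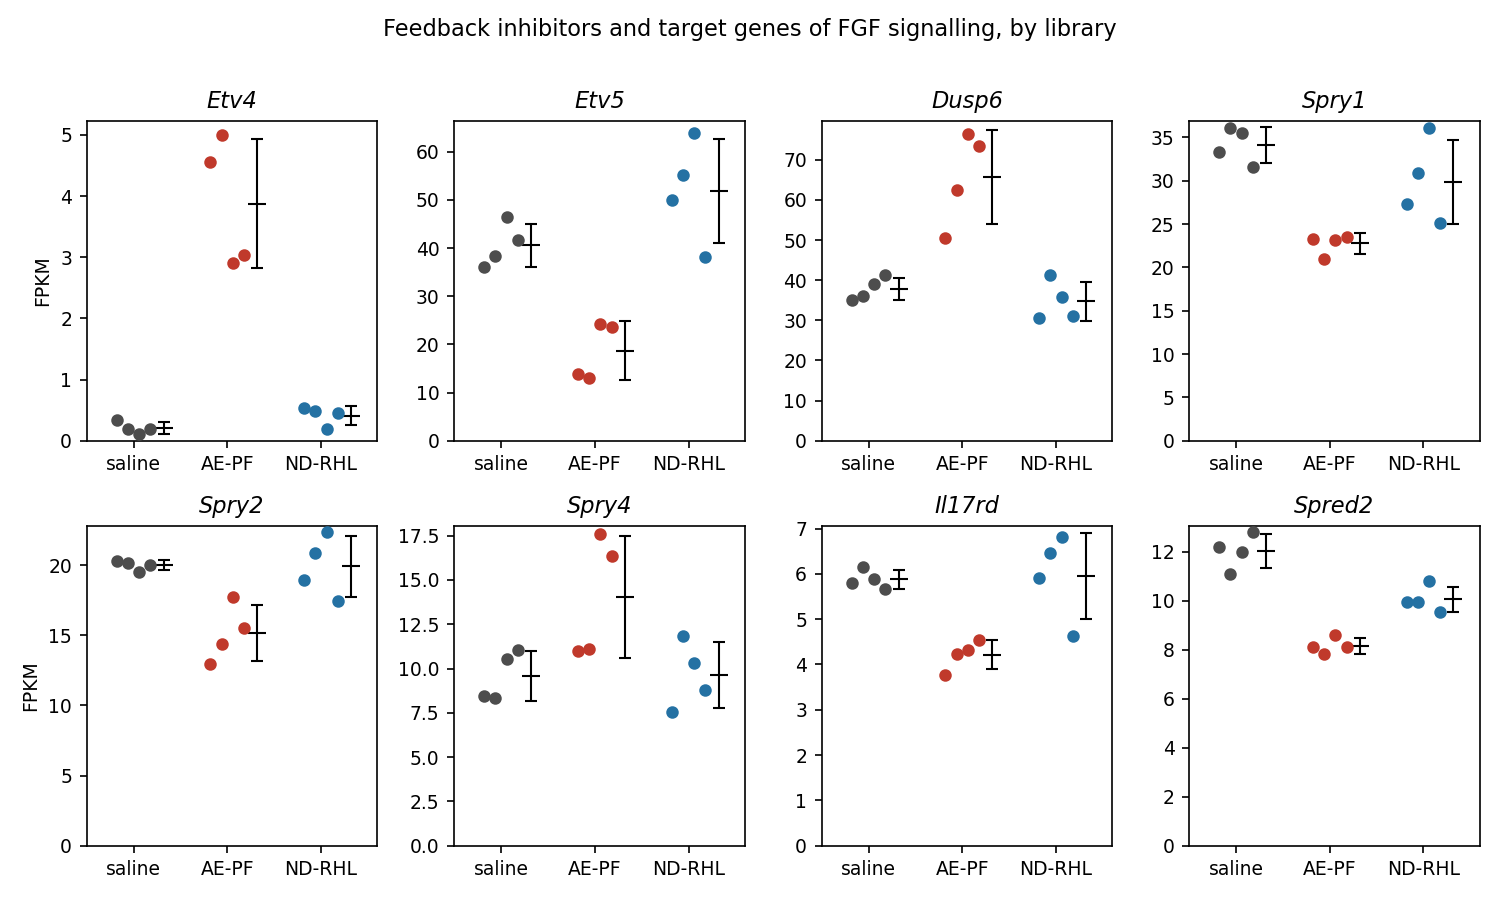
FPKM of 8 feedback inhibitors and target genes of FGF signalling, linear axes from 0, 1 point per library with mean and SD (4 per group). In AE-PF lung Etv4, Dusp6 and Spry4 are high (mean 3.88, 65.7 and 14.0) and Etv5, Spry1, Spry2, Il17rd and Spred2 are low (mean 18.7, 22.8, 15.2, 4.22 and 8.16).

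The other kinases that nintedanib blocks were also read. Of 9, 3 rose and 2 fell in AE-PF, 2 rose and 3 fell with ND-RHL against AE-PF, and 1 rose and 2 fell against saline, with median log2 differences of 0.04, -0.03 and -0.16. Of all tested genes 56.6%, 41.8% and 21.9% changed in these comparisons. Kdr, the main VEGF receptor of endothelium, was at 59.7 ± 3.49, 25.4 ± 7.57 and 51.9 ± 10.8 (adjusted p = 0.000381 and 0.00252). Flt1, another VEGF receptor, fell from 31.2 ± 3.16 to 19.7 ± 2.95 in AE-PF and was 19.7 ± 3.26 in ND-RHL lung, lower than saline in both (adjusted p = 0.00134 and 0.00581). Pdgfrb, the PDGF receptor of pericytes and fibroblasts, was at 47.6 ± 2.83, 71.6 ± 3.73 and 43.0 ± 8.04 (adjusted p = 0.00118 and 0.000552). Pdgfra was at 51.6 ± 1.02, 54.3 ± 13.3 and 35.8 ± 5.09, lower with ND-RHL than without it (adjusted p = 0.0097) and than in saline (adjusted p = 0.0261, lost without any of the 4 saline libraries or ND-RHL library 1, 2 or 4). Lck, the T cell kinase, was at 4.04 ± 0.421, 4.39 ± 2.52 and 9.06 ± 3.25, with its rise over AE-PF (adjusted p = 0.0275) lost without AE-PF library 1 or 2 or ND-RHL library 4. With AE-PF 2 and ND-RHL 4 both left out, the log2 rise of Lck over AE-PF was 0.49 in place of 0.99, and the Pdgfra difference was -0.37 in place of -0.57. Lyn was at 29.6 ± 0.543, 38.8 ± 4.38 and 37.8 ± 1.58, higher than saline in both challenged groups (adjusted p = 0.00117 and 0.00837).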

How the data were processed

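RNA of 12 mouse lung samples, 4 per group as the sample titles give them, was sequenced as polyadenylated libraries. The authors deposited 1 table of FPKM values for 35599 genes; per the submitters' processing notes, the tools were STAR 2.7.9a, Trim Galore 0.6.6, FastQC, DESeq2 1.30.1 and featureCounts (Subread 2.0.1), with GRCm38 (mm10). Whole fragments were recovered from the steps of the FPKM values for all 35599 genes (within 1e-05 fragments), giving the library totals. Members and gene lists were chosen with earlier results of these data known.

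The tests used limma 3.58.1 (R 4.3.3) with a variance trend on log2(FPKM + 1), 2-sided, with Benjamini-Hochberg adjustment over the 15164 genes that reached an FPKM of 1 in 4 or more libraries. All 12 libraries shared 1 fit, and the threshold was an adjusted p of 0.05. Log2 changes understate those of low genes. Single members were also tested by exact permutation of 4 against 4. The code was tested on simulated data. Named genes were the members, up to 3 genes per list and comparison with the largest called change, 12 fixed genes, and up to 3 genes of most similar pattern per member; some results under this rule are not reported here. The table's positions were not those of GRCm38, so coordinates come from GENCODE M21 by gene ID. Alternatives were other pseudocounts, filters, scalings and tests, a replicate block, and libraries left out. Deviations of same-numbered saline and ND-RHL libraries from their group means were correlated in 4 of 4 pairs (0.114 to 0.397). These numbers were therefore taken as pairs in an added fit of those groups, though the labels give them no meaning. Between differently numbered libraries of these groups the correlation ran from -0.42 (saline 3, ND-RHL 1) to 0.316 (saline 2, ND-RHL 3). The pairing is therefore not established. No promoter stretch of Fgfr1 was used, and protein sequences were not used here.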

Additional observations from a re-analysis of the deposited data

How the results depend on the processing

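The 9 members were refitted under 24 alternatives in every comparison and 1 more in ND-RHL against saline. All 14 member calls of AE-PF against saline and of ND-RHL against AE-PF kept their direction and their side of the threshold in each, and no call of a member changed sign. The number of members lower in ND-RHL than in saline lung, 4, was 1 with no filter on low values and 2 with only the 2 groups compared, and 1 to 4 when single libraries were left out. The fit with no filter tested 35599 genes in place of 15164, and the cause of these changes was not tested. The fit with the replicate number as a block over all 3 groups gave the same member counts, 2 higher and 6 lower, 4 higher and 2 lower, and 0 higher and 4 lower. A block fit of saline and ND-RHL alone, added after the data were seen, gave 0 higher and 5 lower, with Fgfr1 the member gained (adjusted p = 0.0314). Lck was the other named gene gained, as higher (adjusted p = 0.0301). It also passed without a block when only the 2 groups were compared (adjusted p = 0.0095) and in other settings without a block. In the fit of all 12 libraries its adjusted p was 0.0518 (all limma). The block over all 3 groups ended the call of Hs2st1 in ND-RHL against saline, and no other call of a named gene changed under either block. Same-numbered libraries did not deviate together between saline and AE-PF (correlation over 0.1 in 0 of 4 pairs) or between AE-PF and ND-RHL (1 of 4). With AE-PF 2 and ND-RHL 4 both left out, Fgf18 in ND-RHL against saline had an adjusted p of 0.0820. Fgf18 rests on 83 to 205 fragments a library and Fgfr4 on 190 to 1171, which limits what small differences could be seen.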
